A study of Homo sapiens with 12 samples.

Results

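MCF10DCIS, a line of the MCF10 breast epithelial series that stands for ductal carcinoma in situ, was compared with parental MCF10A, the non-tumorigenic line at the origin of the series. The values were mean TPM per line, and the genes compared were those with at least 1 TPM in either line, 12527 of 59427 gene symbols. Of these, 10962 reached 1 TPM in both lines, 482 in MCF10DCIS alone and 1083 in MCF10A alone. MCF10DCIS descends from MCF10A cells carrying an activated HRAS, given in the series description as HRAS G12V, and was established from lesions that such cells formed in mice. MCF10AT1, the line transformed with that HRAS, and MCF10CA1a, the metastatic line, are set beside it where they help. All 4 lines received the same medium, DMEM:F12 with EGF, hydrocortisone, insulin, cholera toxin and horse serum, so these additives were present in both arms of every comparison. Each line was represented by 3 libraries of total RNA, but the values used were means over them, and each stage is a single line.

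Ductal carcinoma in situ is a growth of tumour cells that fills the mammary duct and is still enclosed by a myoepithelial cell layer and a basement membrane. The normal duct has an inner layer of luminal cells, known for keratins such as KRT8 and KRT18, and an outer basal or myoepithelial layer, known for KRT5, KRT14, the transcription factor p63 and the integrins of hemidesmosomes. RAS proteins pass signals from growth factor receptors to the kinase ERK, which induces its own inhibitors, among them the DUSP phosphatases and the Sprouty proteins.

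Differences are log2(TPM + 1) of MCF10DCIS minus that of MCF10A, which understates the difference of low genes. They were computed on the TPM as deposited and on rescaled TPM, in which structural and small RNAs, mitochondrially encoded RNAs and ribosomal protein mRNAs were left out and the rest was brought back to 1000000. Structural and small RNAs held 66.0% of the TPM in MCF10DCIS and 57.6% in MCF10A, led by the signal recognition particle RNA gene RN7SL1 with 417954 and 296580.0 TPM. The median difference of all compared genes was -0.40 on the deposited and -0.11 on the rescaled scale. A gene is called higher or lower where its difference was at least 1, a 2-fold difference of TPM + 1, in the same direction on both scales. Levels below are deposited TPM and differences are on the rescaled scale. No value has an error, so differences cannot be weighed against replicate spread and there is no test, and the depth behind the means is unknown. In such bulk values, fewer cells of a kind and less RNA per cell cannot be told apart.

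By this rule 460 genes were higher in MCF10DCIS (3.67%) and 1224 were lower (9.77%). The balance of the directions depended on the scale. There were 467 higher (3.73%) and 1937 lower (15.5%) genes on deposited TPM alone, 932 (7.54%) and 1314 (10.6%) on rescaled TPM alone, 847 and 794 with median-of-ratios scaling and 838 and 805 with quantile normalization. Differences of 3 or more on the rescaled scale were held by 103 of the higher genes, and differences of -3 or less by 144 of the lower ones. Protein-coding genes gave 413 of 11255 higher and 1102 lower, and long non-coding RNAs 38 of 783 higher and 78 lower. The nearest genes inside and outside the limit differed by 1.0007 and 0.9994 on the higher side, and by -1.00003 and -0.99997 on the lower side, each on the scale nearer to 0. Against MCF10AT1, on the same MCF10DCIS column, 212 of the higher genes were higher too and 371 of the lower genes lower too.

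**Figure D1:**
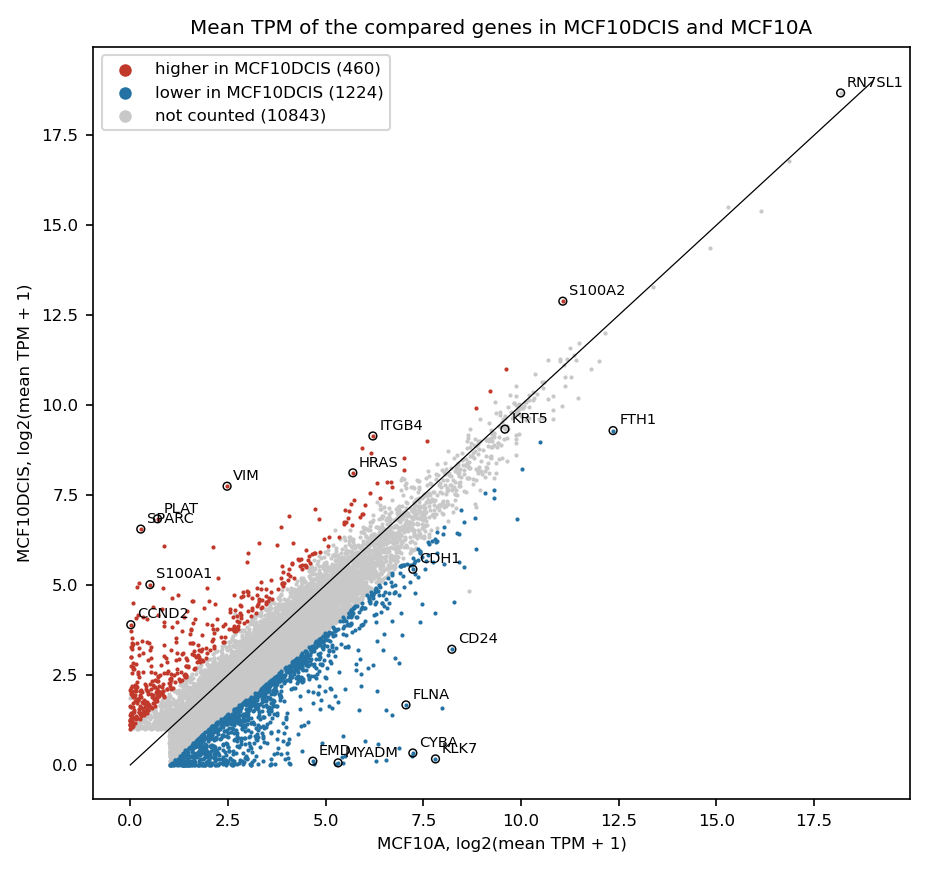
Each point is 1 of the compared genes, with its level in MCF10DCIS on the vertical axis and in MCF10A on the horizontal axis, both as log2(mean TPM + 1); the line marks equal levels. The 460 genes called higher lie above the line, up to S100A2 at 7569.7 against 2146 TPM, and the 1224 called lower lie below it, up to FTH1 at 625 against 5236 TPM.

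The transgene of the series was looked at before other genes, as a check of the label. HRAS (GRCh38 chromosome 11, minus strand, 532242 to 537287) was at 276 TPM in MCF10DCIS, 126 TPM in MCF10AT1, 312 TPM in MCF10CA1a and 50.8 TPM in MCF10A. It had the largest difference of the 25 RAS genes and regulators compared, 2.81, and the table does not separate the native from the added copy. The RAS effector gene RIN1 (22.7 and 9.33 TPM) and the RAS GTPase-activating protein gene RASAL1 (18.8 and 7.71 TPM) were the other 2 higher members. The 3 lower members were MAPK3, which encodes the kinase ERK1, at 8.62 and 34.9 TPM, and the RAS-like GTPase genes RALA and RALB, with differences of -1.35 and -1.22.

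Inhibitors of ERK signalling were higher as a group. Of 16 compared, 8 were higher and 1 was lower, with a median difference of 1.38. The ERK phosphatase gene DUSP6 was at 95.9 TPM in MCF10DCIS and 13.4 TPM in MCF10A (3.18), and the Sprouty genes SPRY1 and SPRY4 differed by 2.65 and 2.09. IER3, an early response gene, reached 133 TPM against 47.4 TPM. The exception was DUSP1, a phosphatase of stress-activated kinases, at 6.64 and 19 TPM. Of 21 AP-1, ETS and EGR transcription factor genes, 3 were higher and 2 lower. The ETS factor genes ETV4 and ETV5, known targets of ERK, were at 16 and 16.7 TPM in MCF10DCIS and 6.14 and 7.53 TPM in MCF10A, and MYC was at 107 and 43.5 TPM. JUN, a subunit of AP-1, was lower, at 2.54 and 11 TPM.

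Genes of several kinds were among the 20 that differed most upward. SPARC, which encodes a collagen-binding matricellular protein, was at 92.9 TPM in MCF10DCIS and 0.203 TPM in MCF10A, a difference of 7.79. PLAT, the tissue plasminogen activator, was at 113 and 0.619 TPM (7.26), and FKBP10, a collagen chaperone of the endoplasmic reticulum, at 30.0 and 0.122 TPM (6.39). The neurotrophin receptor gene NGFR reached 32.6 TPM against 0.162 TPM, and VIM, the intermediate filament of mesenchymal cells, 213 TPM against 4.56 TPM. Others among the 20 genes with the largest upward differences were the serine protease gene PRSS21 (6.17), the hyaluronan synthase gene HAS3 (5.19), the glutathione peroxidase gene GPX2 (5.50), the receptor phosphatase gene PTPRS (4.95) and the inositol phosphatase gene INPP5D (4.50).

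Among these genes the other derived lines differed. PTPRS and INPP5D were at 21.6 and 13.8 TPM in MCF10AT1, and VIM at 516 TPM, above its 213 TPM in MCF10DCIS. SPARC was at 1.22 TPM, NGFR at 0.323 TPM and PRSS21 at 0.0338 TPM in MCF10AT1. In MCF10CA1a the same 3 genes were at 31.7, 19.3 and 21.6 TPM, so their levels in MCF10DCIS were closer to MCF10CA1a than to MCF10AT1 on the log2 scale.

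**Figure D2:**
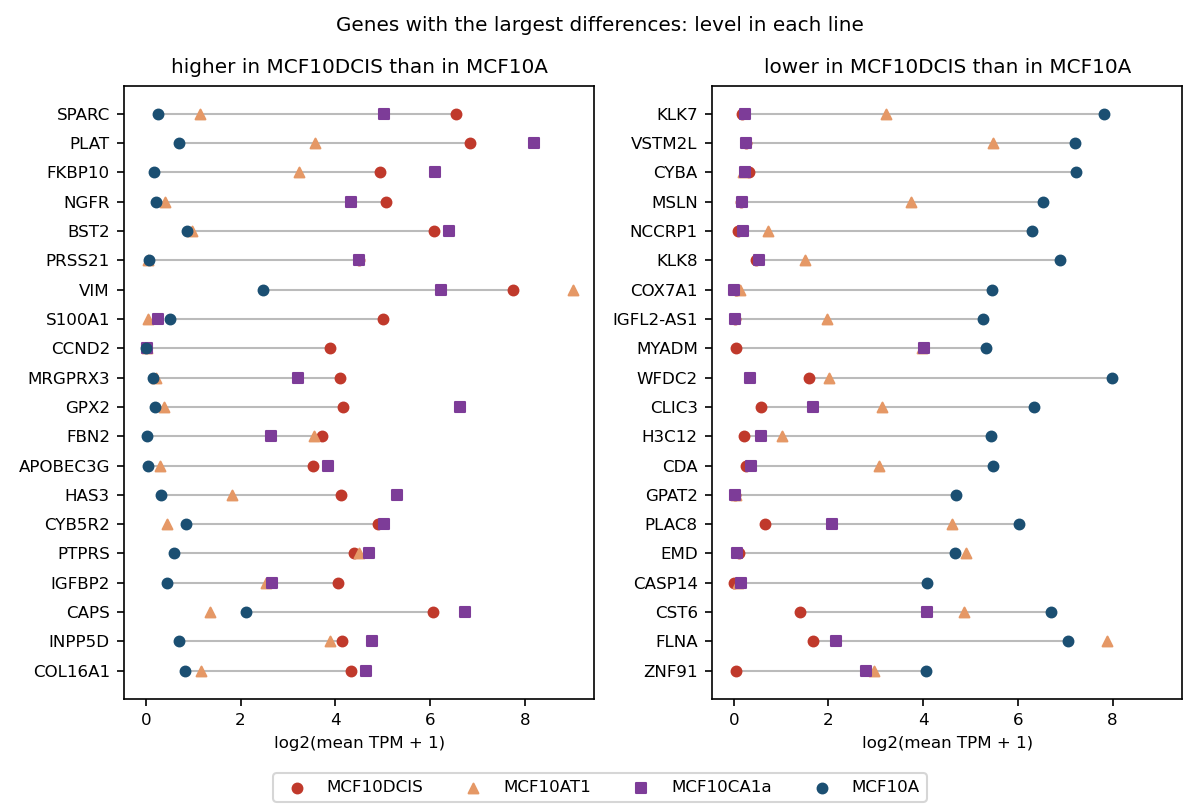
Level of the 20 genes with the largest upward differences and the 20 with the largest downward differences in each of the 4 lines, as log2(mean TPM + 1); the grey bar joins MCF10DCIS and MCF10A. S100A1 and CCND2 are high in MCF10DCIS alone (31.2 and 13.9 TPM), and MYADM and ZNF91 are near 0 in MCF10DCIS alone (0.0396 and 0.0345 TPM), while EMD is low in MCF10DCIS and MCF10CA1a (0.075 and 0.0538 TPM).

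The 20 that differed most downward were of several kinds too. KLK7, a kallikrein protease of shedding epidermis, was at 0.122 TPM in MCF10DCIS and 223 TPM in MCF10A (-8.80). MSLN, which encodes the surface protein mesothelin, was at 0.109 and 92 TPM, and WFDC2, a secreted protease inhibitor of glands, at 2.0 and 252 TPM. CYBA, the p22phox subunit of NADPH oxidases, was at 0.258 and 149 TPM, and was as low in MCF10AT1 and MCF10CA1a (0.14 and 0.172 TPM). CST6, a cystatin that inhibits lysosomal cysteine proteases, was at 1.62 and 103 TPM, and CDA, the cytidine deaminase of nucleoside salvage, at 0.189 and 43.8 TPM.

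Markers of the basal layer went in both directions. Of 16 basal and myoepithelial markers compared, 5 were higher and 3 lower, with a median of -0.24. TP63, which encodes the basal transcription factor p63, was at 6.22 TPM in MCF10DCIS and 0.901 TPM in MCF10A (2.75). KRT5 was not called, at 643 and 768 TPM, whereas its basal partner KRT14 was lower, at 6.62 and 57.8 TPM (-2.71). The contractile genes of myoepithelium were low in both lines, with ACTA2 at 7.59 and 15 TPM and TAGLN at 0.581 and 2.1 TPM, and neither was called. Among 8 basal and stress keratins, the wound-associated KRT6B was higher, at 405 and 70.8 TPM, as was KRT17, at 971 and 459 TPM, while KRT16 was lower, at 47.2 and 261 TPM. KRT6B shares near-identical copies with KRT6A and KRT6C, so its own value is uncertain.

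Luminal markers were lower or not called. Of 13 compared, 5 were lower, 0 were higher and the median was -0.89. CD24, a glycosylated surface protein used to sort mammary cells, was at 8.27 TPM in MCF10DCIS and 299 TPM in MCF10A (-4.76), with the caveat that it has near-identical copies elsewhere in the genome. The mucin gene MUC1 was at 11.2 and 123 TPM, the secretory protein disulfide isomerase gene AGR2 at 1.71 and 12.5 TPM and KRT19 at 0.688 and 5.76 TPM. KRT8, KRT18 and EPCAM were not called, at 393, 684 and 70.5 TPM in MCF10DCIS and 942, 766 and 86.1 TPM in MCF10A. The wider list of mucins and luminal secretory proteins had 7 of 14 lower and 2 higher. Its 2 higher members were aldehyde dehydrogenase genes, ALDH1A3 at 188 and 69.1 TPM and ALDH3A1 at 13.6 and 0.818 TPM.

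Of 14 hemidesmosome and epithelial integrin genes, 3 were higher and 2 lower, with a median of 0.32 (-0.05 on the deposited scale). The hemidesmosome integrin gene ITGB4, on chromosome 17 from 75721328 to 75757818, was at 563 TPM in MCF10DCIS and 72.9 TPM in MCF10A (3.31). Its partner ITGA6 was at 147 and 62.7 TPM, and the laminin receptor subunit ITGA3 at 231 and 102 TPM. These were the 3 higher members. The 2 lower ones, ITGB6 and ITGB8, encode integrin subunits known to activate TGF-beta, and differed by -1.25 and -1.21. Of 17 laminin and basement membrane genes, 3 were higher and 0 lower, led by the laminin chain gene LAMA4 at 13.9 and 3.28 TPM. The higher ones numbered 6 with median-of-ratios scaling, 5 with quantile normalization and 1 with a filter of 5 TPM in either line. Summed over the list, the level was 738 TPM in MCF10DCIS and 739 TPM in MCF10A. LAMB3, a chain of the laminin under epithelia, was at 205 and 132 TPM and was not called.

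Genes of cell to cell junctions were lower where they were called, with 1 exception. The median of 20 tight junction genes was -0.75, with 6 lower, or 12 on deposited TPM alone, and 1 higher. OCLN, which encodes occludin, was at 1.09 TPM in MCF10DCIS and 9.06 TPM in MCF10A, and the claudin gene CLDN8 at 0.0894 and 6.02 TPM, whereas CLDN1 was higher, at 21.3 and 10.0 TPM. Of 10 desmosome genes, 3 were lower and 0 higher, the desmosomal cadherin genes DSC2 (4.76 and 59.1 TPM), DSG3 (18.1 and 84.5 TPM) and DSG2 (21.6 and 85.9 TPM). Of 7 cadherins and catenins, 4 were lower and 0 higher, but only 2 were lower with median-of-ratios scaling or quantile normalization. The E-cadherin gene CDH1 was at 42.3 and 149 TPM (-1.44) and the P-cadherin gene CDH3 at 62.7 and 165 TPM (-1.02).

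Regulators of the epithelial state went in both directions. Of 25 compared, 3 were higher and 6 lower, and the lower ones numbered 2 with median-of-ratios scaling or quantile normalization and 9 on deposited TPM alone. The higher ones included TP63 and BCL11A, a zinc-finger repressor (7.34 and 0.169 TPM). ELF3, an ETS factor of luminal and other secretory epithelia, was lower, at 17.8 and 222 TPM (-3.25), as were KLF4 (-2.23), GRHL2 (-1.19) and OVOL2 (-1.21). Inducers of epithelial to mesenchymal transition had 0 higher and 3 lower members of 10. With median-of-ratios scaling or quantile normalization 1 was higher and 1 lower. TWIST1 was at 4.45 and 19.6 TPM. Of 14 mesenchymal genes, VIM, SPARC, the fibrillin gene FBN2 and the receptor kinase gene AXL were higher. FAP, a protease of activated fibroblasts, and S100A4 were lower, at 0.64 and 5.87 TPM in MCF10DCIS and 15.8 and 72.6 TPM in MCF10A.

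Kallikreins, secreted serine proteases encoded by a cluster on chromosome 19, were the list with the lowest median, -3.13. Of 15 listed, 7 were compared, and 6 of these were lower and 0 higher. KLK5, which activates other kallikreins, was at 112 TPM in MCF10DCIS and 953 TPM in MCF10A, KLK10 at 14.7 and 168 TPM, and KLK8 at 0.396 and 117 TPM. Summed over the list, kallikreins held 136 TPM in MCF10DCIS and 1586 TPM in MCF10A. KLK5, KLK7 and KLK8 were below their MCF10A levels in MCF10AT1 and MCF10CA1a too, but to differing degrees. KLK5 was at 55.4 and 179 TPM, KLK7 at 8.27 and 0.172 TPM and KLK8 at 1.82 and 0.439 TPM in these lines.

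Other membrane and secreted protease genes followed in part. Of 15 membrane serine proteases and inhibitors, 7 were lower (3 with a filter of 5 TPM) and 2 higher. The channel-activating protease gene PRSS8 was at 21.4 and 75.9 TPM and the leukocyte protease inhibitor gene SLPI at 84.2 and 338 TPM. The higher members were the serpin genes SERPINA3, alpha-1-antichymotrypsin, at 449 and 60.0 TPM, and SERPINA1, alpha-1-antitrypsin, at 48.5 and 6.94 TPM. Of 17 matrix metalloproteinases, related ADAM proteases and inhibitors, 7 were lower (4 with quantile normalization) and 2 higher. MMP7 was at 0.865 and 11.1 TPM and ADAM9 at 26.3 and 98 TPM, whereas ADAM8 (27 and 6.44 TPM) and MMP28 (27 and 7.13 TPM) were higher. Of 13 plasminogen system genes, 2 were higher (5 with median-of-ratios scaling and 4 with quantile normalization) and 1 lower; PLAT and TFPI, the inhibitor of the tissue factor pathway, were higher, and F3, tissue factor itself, was lower (21.2 and 176 TPM).

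Cornified envelope genes, which build the surface of stratified epithelia, had 3 of 9 compared members higher and 4 lower. With a filter of 5 TPM 2 were higher and 2 lower. NCCRP1, an F-box related protein of stratified epithelia, was at 0.0692 and 77.6 TPM and TGM1, the crosslinking transglutaminase, at 1.17 and 8.63 TPM. The small proline-rich genes SPRR1B and SPRR2D were higher, at 10.8 and 6.81 TPM in MCF10DCIS and 3.99 and 0.898 TPM in MCF10A; SPRR2 genes share near-identical copies. KRT10, the keratin of suprabasal epidermis, was lower, at 4.31 and 25.8 TPM.

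S100 genes, which encode small calcium-binding proteins, held 5 higher and 2 lower of 14 compared members, with a median of 0.80. S100A2 was at 7569.7 TPM in MCF10DCIS and 2146 TPM in MCF10A, S100A14 at 2066 and 780.0 TPM, and S100A1 at 31.2 and 0.415 TPM (5.75). These 3 were also at least 1 higher than in MCF10AT1 and MCF10CA1a, where S100A1 was at 0.0373 and 0.197 TPM. The lower members were S100A4 and S100P (297 and 1041 TPM). The genes S100A1, S100A2 and S100A14 lie together on chromosome 1, in a run of 25 neighbouring genes (GRCh38 151759643 to 153671048) with a median of 0.82, 7 higher and 2 lower. Of 11 annexins, which bind membranes in the presence of calcium, 3 were higher and 0 lower. ANXA8 and its near-copy ANXA8L1 were at 45.3 and 22.7 TPM in MCF10DCIS and 21.4 and 1.96 TPM in MCF10A, and their reads may be shared.

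Collagen genes had the highest median of the lists with 5 or more compared members, 2.09, with 6 of 9 higher and 1 lower. With a filter of 5 TPM 2 were higher and 0 lower, so most called members were below 5 TPM in both lines. The list summed to 55.4 TPM in MCF10DCIS and 10.9 TPM in MCF10A. COL16A1, a fibril-associated collagen, was at 19 TPM in MCF10DCIS and 0.767 TPM in MCF10A, and COL12A1 at 13.3 and 1.11 TPM. The fibroblast collagen gene COL1A1 stayed low, at 2.78 and 0.674 TPM. Genes that fold and crosslink collagen had 2 of 21 higher, FKBP10 and P3H4 (22.4 and 3.02 TPM), and 5 lower, among them the lysyl oxidase gene LOXL2 (8.19 and 87.8 TPM) and the lysyl hydroxylase gene PLOD1 (25.4 and 81.2 TPM). Matricellular and proteoglycan genes had 4 of 20 higher (7 with median-of-ratios scaling or quantile normalization), with SPARC, the syndecan gene SDC1 (163 and 52.1 TPM) and the TGF-beta binding gene LTBP4 (23.3 and 8.76 TPM), and 3 lower. TGFBI, a TGF-beta induced adhesion protein, was at 6.11 and 116 TPM, the follistatin-like gene FSTL1 at 1.98 and 34.9 TPM and the tenascin gene TNC at 1.95 and 8.6 TPM.

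Ligands of the EGF receptor were higher while several other growth factor receptors were lower. Of 14 EGF family receptors and ligands, 5 were higher and 1 lower, with a median of 0.64. The ligand genes AREG (232 and 93.2 TPM), TGFA (42.5 and 19.9 TPM), EREG (25.6 and 8.44 TPM) and HBEGF (13.4 and 4.2 TPM) were higher in MCF10DCIS. The receptor gene EGFR was not called, at 24.2 and 49.4 TPM, and the receptor gene ERBB3 was lower, at 3.57 and 13.6 TPM. Of 18 neurotrophin and other receptor kinase genes and ligands, 8 were lower (5 with median-of-ratios scaling and 6 with quantile normalization) and 2 higher. MET, the receptor of hepatocyte growth factor, was at 14.3 and 49.4 TPM, the neuropilin gene NRP2 at 8.65 and 43.7 TPM and FGFR1 at 0.986 and 5.21 TPM, whereas NGFR and AXL (28.4 and 9.18 TPM) were higher. Among 7 genes of the IGF binding family, IGFBP2 was higher (15.6 and 0.355 TPM), and IGFBP3 (3.61 and 59.3 TPM) and IGFBP6 (8.79 and 46.7 TPM) were lower.

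The interleukin-1 ligand genes IL1A and IL1B were higher and the antagonist gene lower, within a family that was divided. IL1A was at 14.6 TPM in MCF10DCIS and 0.813 TPM in MCF10A (4.05), and IL1B at 9.44 and 0.382 TPM (4.11). The accessory receptor gene IL1RAP was higher, at 21.1 and 3.49 TPM, and the antagonist gene IL1RN lower, at 1.38 and 6.33 TPM. Of the 8 family members compared, 3 were higher and 3 lower (1 with a filter of 5 TPM), with a median of -0.12. The family ligand gene IL18 was not called (0.14). The neutrophil-attracting chemokine genes CXCL8 (25.5 and 1.31 TPM) and CXCL1 (22.5 and 2.06 TPM) were among 4 higher and 1 lower of 8 chemokines. With a filter of 5 TPM 2 chemokines were higher and 0 lower. IL1A, IL1B, CXCL8 and CXCL1 were below 5 TPM in MCF10AT1, and in MCF10CA1a IL1B and CXCL8 reached 135 and 188 TPM. Of 17 NF-kB subunit and feedback genes, NFKB2 (24.8 and 10.1 TPM), RELB (6.61 and 2.57 TPM) and the adhesion receptor gene ICAM1 (6.52 and 0.376 TPM) were higher. TNFAIP2 and BIRC3 were lower (-1.75 and -1.22). LIF, an interleukin-6 family cytokine, was higher, at 46.5 and 16.7 TPM.

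The window around the start site was examined in RefSeq (GRCh38.p14), 250 bases before to 50 after, for 9411 of the 12527 compared genes that matched by symbol. The AP-1 motif TGACTCA, on either strand, was present in 19 of the 343 higher genes with a sequence (5.54%), in 38 of the 802 lower genes (4.74%), in 2.83% of the genes not called and in 4.92% of all promoters in the table. CXCL8, IL1A and S100A2 were higher in MCF10DCIS and MMP7 lower, and their windows are shown because both directions hold the motif, which stands in capitals. They are given 5′ to 3′ on the gene's strand, for CXCL8 at chr4:73740319-73740618 (plus), IL1A at chr2:112784444-112784743 (minus), S100A2 at chr1:153565795-153566094 (minus) and MMP7 at chr11:102530698-102530997 (minus).
CXCL8: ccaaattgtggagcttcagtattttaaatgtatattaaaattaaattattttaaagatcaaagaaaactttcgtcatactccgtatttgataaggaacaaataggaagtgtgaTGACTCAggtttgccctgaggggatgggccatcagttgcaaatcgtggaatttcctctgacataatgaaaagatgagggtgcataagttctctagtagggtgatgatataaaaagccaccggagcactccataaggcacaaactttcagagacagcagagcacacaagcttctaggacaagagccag
IL1A: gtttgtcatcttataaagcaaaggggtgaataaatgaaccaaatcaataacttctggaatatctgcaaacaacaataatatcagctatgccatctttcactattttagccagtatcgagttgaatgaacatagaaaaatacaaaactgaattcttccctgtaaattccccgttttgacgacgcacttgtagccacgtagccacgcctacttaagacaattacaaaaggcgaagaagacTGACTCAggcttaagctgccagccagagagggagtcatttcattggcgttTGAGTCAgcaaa
S100A2: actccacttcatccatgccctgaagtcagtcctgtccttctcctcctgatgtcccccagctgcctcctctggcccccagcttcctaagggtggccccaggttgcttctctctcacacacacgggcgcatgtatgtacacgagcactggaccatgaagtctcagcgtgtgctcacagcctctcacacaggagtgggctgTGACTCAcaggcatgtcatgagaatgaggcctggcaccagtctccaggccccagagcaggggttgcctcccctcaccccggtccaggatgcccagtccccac
MMP7: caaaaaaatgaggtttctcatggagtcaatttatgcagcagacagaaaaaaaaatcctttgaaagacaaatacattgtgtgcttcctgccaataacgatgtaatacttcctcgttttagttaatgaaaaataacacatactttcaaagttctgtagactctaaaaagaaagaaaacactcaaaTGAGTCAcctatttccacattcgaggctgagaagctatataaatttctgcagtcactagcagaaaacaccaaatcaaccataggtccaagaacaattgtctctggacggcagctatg
IL1A holds the motif in 2 places, the others in 1. The ETS motif CCGGAAGT, on either strand, was in 1.46% of higher genes, 5.49% of lower genes and 10.3% of genes not called. A match is a run of letters and says nothing of binding.

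Interferon-stimulated genes were divided. Of 25 compared, 3 were higher and 7 lower, with a median of -0.77. BST2, which tethers budding viruses to the cell surface, was at 67 TPM in MCF10DCIS and 0.831 TPM in MCF10A, IFITM1, a membrane protein that restricts virus entry, at 9.89 and 0.233 TPM, and the exonuclease gene ISG20 at 18.4 and 1.75 TPM. The lower ones included SAMD9 (1.4 and 14.8 TPM), TRIM22 (4.5 and 23.6 TPM), OAS1 (1.32 and 6.46 TPM) and ISG15, the ubiquitin-like modifier (2.24 and 9.05 TPM). Of the 4 APOBEC3 cytidine deaminases compared, 3 were higher and 0 lower. APOBEC3G was at 10.5 and 0.0352 TPM, APOBEC3F at 7.06 and 0.0106 TPM and APOBEC3C at 45.5 and 13.9 TPM, with reads possibly shared among these paralogs. APOBEC3F and APOBEC3G were at 0.040 and 0.225 TPM in MCF10AT1 and 8.02 and 13.4 TPM in MCF10CA1a.

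Class I genes of antigen presentation were called at about the share of all genes, which was 3.67% higher and 9.77% lower. Of 19 compared, HLA-B was higher (23.6 and 11.2 TPM), though HLA genes share reads, and 2 were lower, the chaperone-like gene TAPBPL and the immunoproteasome gene PSMB10 (15.6 and 43 TPM). Of 2 class II genes compared, 1 was higher and 1 lower. CD74, the invariant chain of class II molecules, was at 8.64 TPM in MCF10DCIS and 0.0195 TPM in MCF10A, and at 0.0536 and 0.0271 TPM in MCF10AT1 and MCF10CA1a. CTSS, the lysosomal protease cathepsin S, was lower, at 1.06 and 6.62 TPM. Of 11 immune checkpoint ligand genes, 4 were lower (2 with median-of-ratios scaling or quantile normalization) and 0 higher.

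Genes of entry into S phase were lower where they were called, with 1 exception. Of 23 cyclins, CDKs and inhibitors of G1, 9 were lower (5 with median-of-ratios scaling or quantile normalization) and 1 higher, and the median was -0.59. The transcription factor gene E2F1 was at 2.11 TPM in MCF10DCIS and 11.5 TPM in MCF10A, E2F2 at 0.488 and 6.17 TPM, and the cyclin genes CCNE2 and CCND3 at 1.02 and 22.4 TPM against 8.23 and 68.5 TPM. The exception was CCND2, which encodes cyclin D2, on chromosome 12 from 4273772 to 4305350. It was at 13.9 TPM in MCF10DCIS, 0.0168 TPM in MCF10AT1, 0.016 TPM in MCF10CA1a and 0.00757 TPM in MCF10A. Of the 5 nearest compared genes on either side, only the non-coding gene AC008012.1 was called higher, at 2.87 and 0.0934 TPM. AC008012.1 spans 4273762 to 4405490 and so overlaps CCND2, and their reads may be shared.

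Genes of DNA replication, mitosis and repair were lower where they were called, but their lower shares were near that of all genes, 9.77%. Of 43 DNA replication and nucleotide synthesis genes, 5 were lower (12 on deposited TPM alone), 0 were higher and the median was -0.47; PCNA, the sliding clamp, was at 54.2 and 176 TPM and the histone chaperone gene ASF1B at 7.67 and 27.7 TPM. Of 37 mitosis genes, 2 were lower, 0 were higher and the median was -0.10, beside -0.11 over all genes. Of 30 homologous recombination genes, 4 were lower (1 with median-of-ratios scaling or quantile normalization and 9 on deposited TPM alone), including NBN (9.11 and 27.3 TPM) and PALB2 (2.98 and 8.17 TPM). Replication-dependent histone genes had 18 of 52 lower (28 on deposited TPM alone) and 1 higher, with a median of -0.66, and their near-identical copies may share reads. The most abundant, H4C14, was at 536 and 761 TPM and was not called, and the higher member, H2AC18, was at 23.8 and 1.09 TPM. H4C13 and H3C11 were listed at 0 in MCF10DCIS, MCF10AT1 and MCF10CA1a and at 10.9 and 7.5 TPM in MCF10A.

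Hormone response genes were lower where called, in a medium that held hydrocortisone for all lines. Of 16 nuclear receptor and hormone response genes, 5 were lower and 0 higher. FKBP5 and ZBTB16, both known to be induced by glucocorticoids, were at 30.2 and 0.114 TPM in MCF10DCIS and 102 and 11.1 TPM in MCF10A, and the kinase gene SGK1 was at 4.99 and 39.5 TPM. In MCF10AT1 FKBP5 and ZBTB16 were at 129 and 13.2 TPM and in MCF10CA1a at 4.0 and 0.0365 TPM. CRABP2 and RARRES1, genes of the retinoic acid response, differed by -1.84 and -2.59.

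Redox, iron and lipid genes gave a few large differences, and their lists other than NADPH oxidases had medians near that of all genes. Of 6 NADPH oxidase genes, 3 were lower and the median was -0.39, beside -0.11 over all genes. The lower ones were led by CYBA and by the organizer subunit gene NOXO1 (0.686 and 9.5 TPM). Of 28 NRF2 target and glutathione genes, 2 were higher, GPX2 and the aldo-keto reductase gene AKR1C1 (17.6 and 8.29 TPM), and 2 lower, including the transporter gene ABCC2 (0.539 and 15.3 TPM). FTH1, the heavy chain of the iron store ferritin, was chosen after its values were seen, and was at 625 TPM in MCF10DCIS, 2746 TPM in MCF10AT1, 647 TPM in MCF10CA1a and 5236 TPM in MCF10A (-2.70). FTH1 has many processed pseudogenes that can take its reads. FASN, the fatty acid synthase, was the only called gene of 33 sterol and fatty acid synthesis genes, at 368 and 127 TPM. Over all genes 3.67% were higher. With median-of-ratios scaling 5 of the 33 were higher, and 4 with quantile normalization or on rescaled TPM alone. Of 42 nuclear-encoded respiratory chain genes, only COX7A1, a muscle-type subunit of cytochrome c oxidase, was called, at 0.0369 and 42.7 TPM. Of 36 glycolysis and hypoxia genes, 2 were higher and 4 lower, near the shares of all genes, 3.67% higher and 9.77% lower. The carbonic anhydrase gene CA12 was higher (8.76 and 0.451 TPM) and CA9 lower (4.38 and 19.9 TPM), and the glycolytic enzyme gene ALDOA was lower, at 506 and 1442 TPM.

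Lists of survival genes, p53 targets, non-coding RNAs and chromatin regulators held between 1 and 5 called genes each. MCL1, a BCL2 family survival protein, was higher, at 135 and 43.9 TPM, with 1 of 14 family members higher and 1 lower. Of 23 p53 targets, 0 were higher and 1 lower. Of 25 cancer-related long non-coding RNAs, 2 were higher, MIR205HG, the host gene of miR-205 (113 and 27.2 TPM), and GAS5 (289 and 127 TPM). Of the 3 lower ones UCA1 was the most abundant in MCF10A, at 0.143 and 15.3 TPM. Of 49 histone methylation and Polycomb genes, 1 was higher and 3 lower, beside 3.67% higher and 9.77% lower over all genes. The demethylase gene KDM5B was at 22 and 10.0 TPM, and the methyltransferase genes KMT2C and EZH2 at 2.5 and 4.22 TPM in MCF10DCIS and 13.2 and 13.8 TPM in MCF10A. Of 12 DNA methylation genes, 0 were higher and 2 lower (1 with median-of-ratios scaling or quantile normalization), the methyl-CpG binding gene MBD2 at 11.7 and 30.6 TPM and UHRF1, which guides maintenance methylation, at 11.6 and 34.5 TPM.

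**Figure D3:**
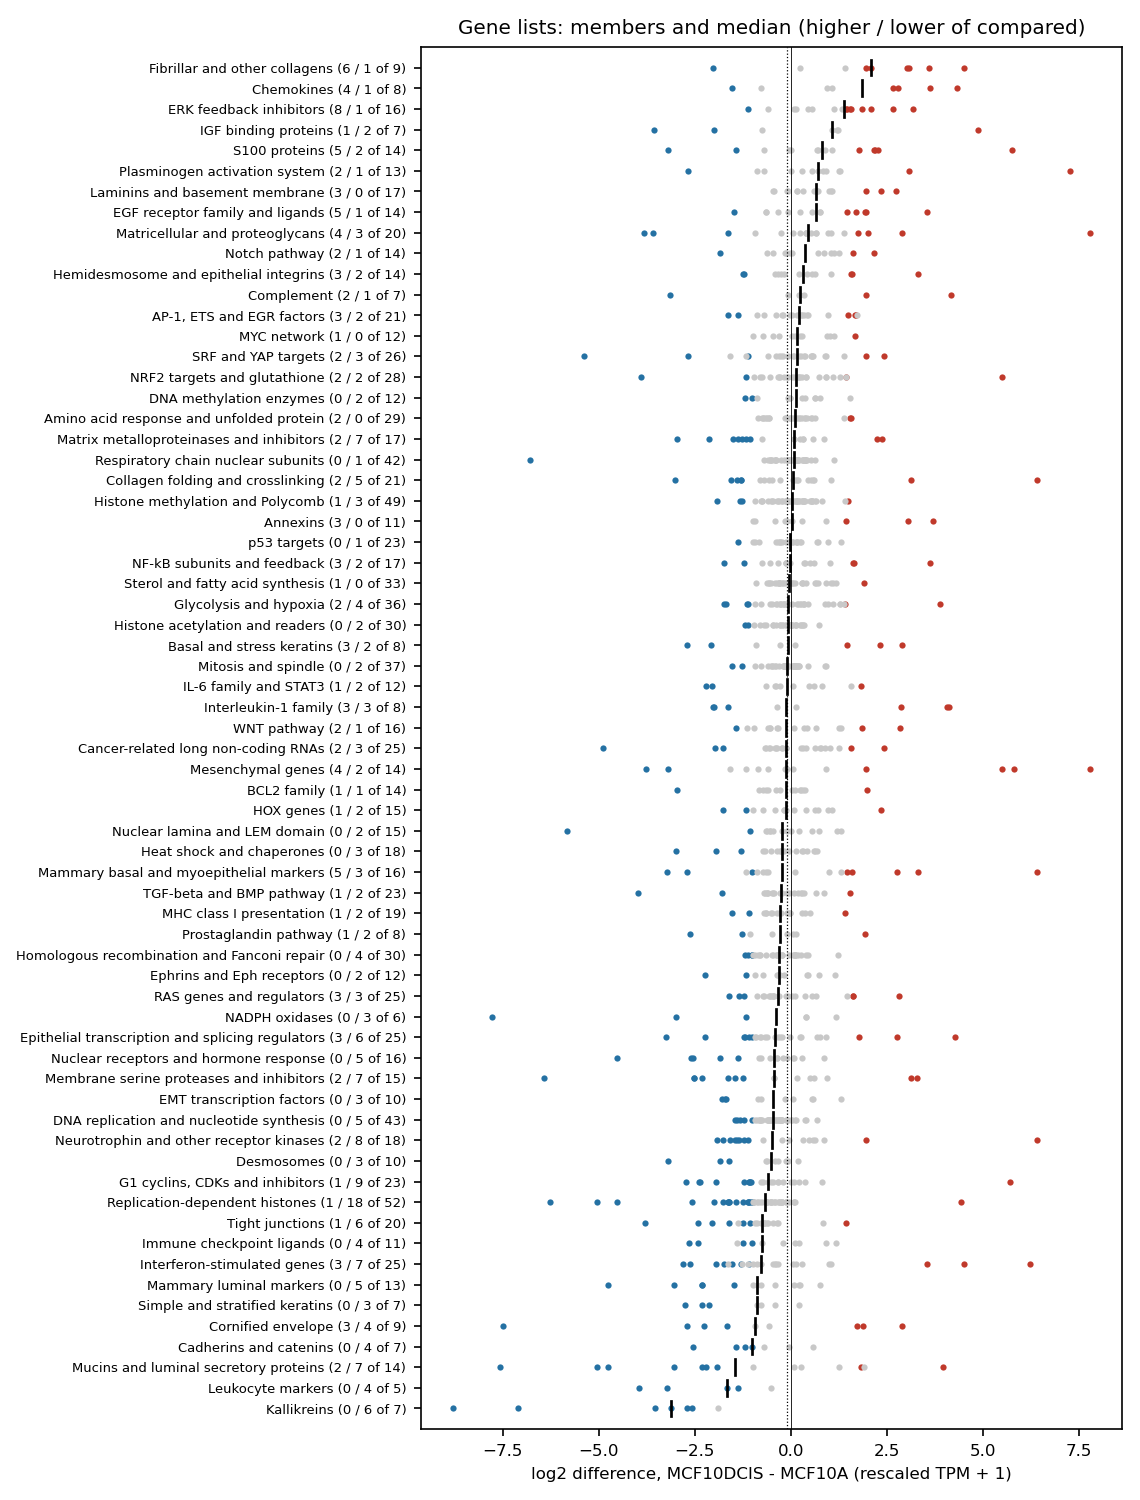
Rescaled log2 difference of MCF10DCIS minus MCF10A for the compared members of each gene list with at least 5 of them; red points are called higher, blue called lower and grey not called, the black tick is the list's median and the dotted line the median of all genes (-0.11). Collagens stand at the top with a median of 2.09 and kallikreins at the bottom with -3.13. Many lists have medians near the dotted line. Some of these have called genes on both sides, and others, such as mitosis and spindle genes, on the lower side alone.

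To find genes in which MCF10DCIS stood apart from the whole series, each line was compared with each of the other 3 on both scales over 13108 genes. MCF10DCIS was at least 1 above each other line in 47 genes (0.359%) and at least 1 below in 100 genes (0.763%). These counts were 137 and 109 for MCF10AT1, 192 and 64 for MCF10CA1a and 310 and 123 for MCF10A. Above were S100A1, CCND2, CD74 and ICAM1, and LEMD1, a LEM domain protein of the testis and tumours, at 57.8 TPM in MCF10DCIS, 0.676 TPM in MCF10AT1, 6.78 TPM in MCF10CA1a and 7.12 TPM in MCF10A. SERPINA3, SMOC1, a basement membrane protein, and FASN were also among them, with SMOC1 at 119, 14.3, 48.7 and 15.7 TPM in the same order of lines.

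Among the genes below every other line, the 5 with the largest gap to the nearest line were MYADM, MGMT, ZNF91, CHFR and CPA4, picked for that gap. MYADM, a myeloid-associated membrane protein, was at 0.0396 TPM in MCF10DCIS, 14.7 TPM in MCF10AT1, 15.1 TPM in MCF10CA1a and 38.9 TPM in MCF10A. MGMT, the methyltransferase that repairs O6-methylguanine in DNA, was at 0.0209, 7.04, 11.5 and 12 TPM in that order. CHFR, a ubiquitin ligase of a mitotic checkpoint, was at 0.026, 4.88, 3.57 and 11.2 TPM. ZNF91, a KRAB zinc-finger gene known to repress retrotransposons, was at 0.0345, 6.78, 5.92 and 15.7 TPM. CPA4, a carboxypeptidase, was at 0.731, 12.6, 13.6 and 42.7 TPM. Of the 100 genes, 20 lie on chromosome 19, which holds 6.83% of the 13108 genes. The genes below every other line that lie there numbered 14 of 109 for MCF10AT1, 5 of 64 for MCF10CA1a and 3 of 123 for MCF10A.

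The neighbours of these genes, meaning the nearest compared genes, were looked at, a choice made after the values were seen. Genes below 1 TPM in both lines can lie between them. MYADM (GRCh38 chromosome 19 from 53866223 to 53876437, plus strand) lies between ZNF331 (0.01) and NDUFA3 (0.05), neither of which was called. MGMT on chromosome 10 lies between MKI67 (-0.17) and GLRX3 (0.95), and CHFR on chromosome 12 between GOLGA3 (-0.27) and ZNF26 (-0.40), again not called. Farther out, ZNF525 near MYADM (-2.16) and FANK1 near MGMT (-2.46) differed more, and PTPRE near MGMT differed by 1.21. EMD and FLNA, which encode the nuclear envelope protein emerin and the actin crosslinker filamin A, are adjacent on chromosome X, at 154379197 to 154381523 and 154348524 to 154374638. FLNA was at 2.18 TPM in MCF10DCIS and 132 TPM in MCF10A, and EMD at 0.075 and 24.5 TPM, while DNASE1L1, the neighbour of EMD, differed by 0.02. FLNA and EMD were also low in MCF10CA1a, at 3.47 and 0.0538 TPM, and not in MCF10AT1, at 236 and 28.9 TPM.

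Zinc-finger genes of chromosome 19 were lower as a group in MCF10DCIS, a group examined after the values of single genes were seen. Most of them encode repressors with a KRAB domain that bind DNA through arrays of C2H2 zinc fingers, and they arose as clusters by duplication. Of 149 compared ZNF symbols on chromosome 19, 38 were lower (25.5%) and 0 higher, and the median was -0.48. On the other chromosomes 12 of 196 were lower (6.12%), with a median of -0.26, and among the 699 other genes of chromosome 19, 9.01% were lower, with a median of -0.08. Against the same MCF10A column, the medians of the 149 genes were -0.03 in MCF10AT1 and -0.02 in MCF10CA1a. Their summed level was 389 TPM in MCF10DCIS, 623 TPM in MCF10AT1, 612 TPM in MCF10CA1a and 659.7 TPM in MCF10A. Of the 149, 18 were below 0.1 TPM in MCF10DCIS, 2 in MCF10AT1, 5 in MCF10CA1a and 0 in MCF10A; each had to reach 1 TPM in MCF10DCIS or MCF10A to be compared, and near-identical copies may share reads.

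The lower genes lay in parts of the chromosome. Between 20 and 30 Mb, 8 of 12 ZNF genes were lower (66.7%), with a median of -2.43, and between 50 and 60 Mb 21 of 73 (28.8%), with a median of -0.60. Between 40 and 50 Mb only 1 of 21 was lower, with a median of -0.04. Over runs of 25 neighbouring genes in the whole genome, the lowest median was that of ZNF836 to MYADM (chromosome 19 from 52153864 to 53876437), -1.92, with 17 of 25 genes lower; the same run had medians of -0.36 in MCF10AT1 and -0.33 in MCF10CA1a. The second lowest that did not overlap it, LPAR2 to AC005381.1 (chromosome 19 from 19623668 to 28535277), had a median of -1.22 and 15 lower genes. In the first run ZNF83 was at 3.91 TPM in MCF10DCIS and 20.0 TPM in MCF10A, ZNF808 at 0.249 and 6.31 TPM and ZNF816 at 0.00597 and 3.11 TPM, whereas ZNF761 was at 4.16 and 5.27 TPM. PPP2R1A, a phosphatase scaffold subunit and the most abundant gene of the run, was at 94 and 147 TPM (-0.28).

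**Figure D4:**
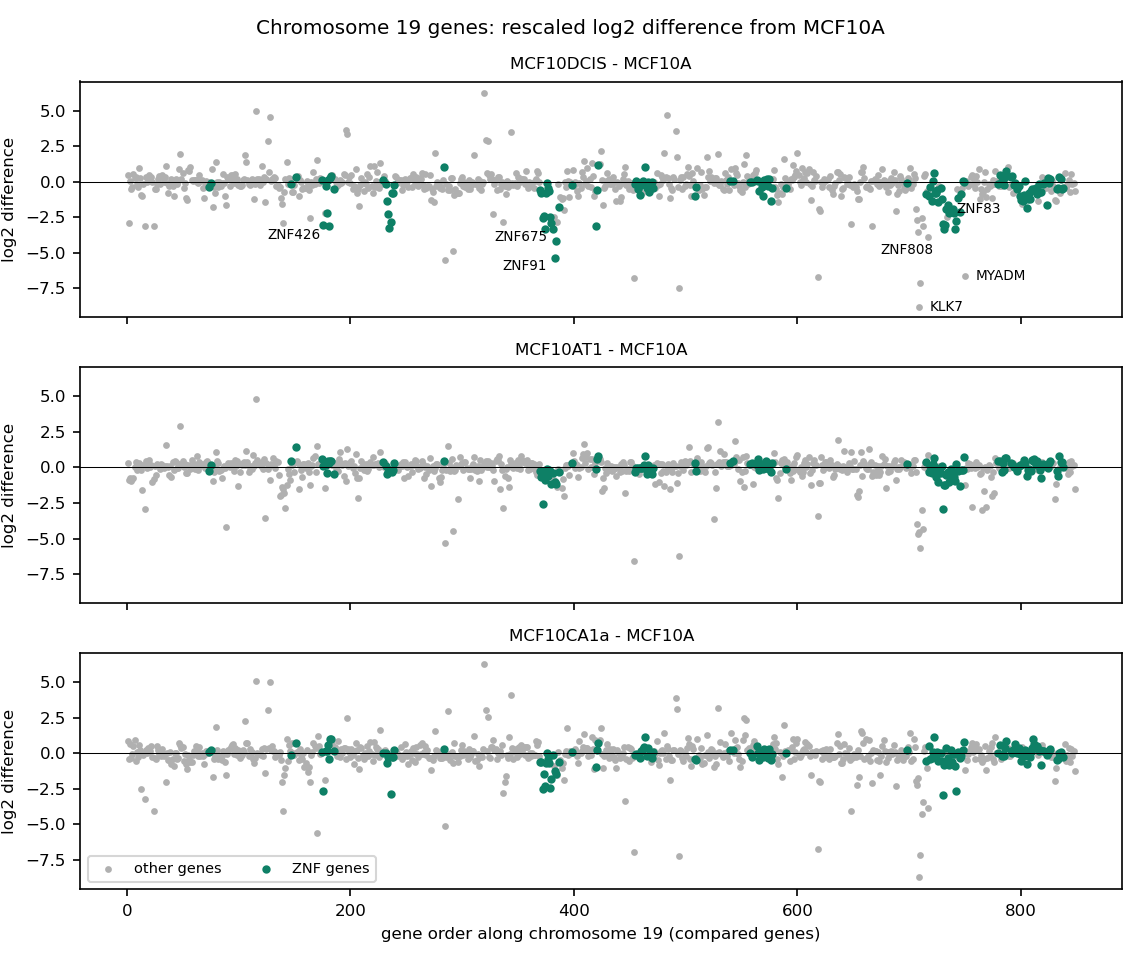
Compared genes of chromosome 19 in their order along the chromosome, with the rescaled log2 difference from MCF10A on the vertical axis, for MCF10DCIS, MCF10AT1 and MCF10CA1a; ZNF genes are green and other genes grey. The ZNF genes around ZNF91 and around ZNF83 drop below the rest in MCF10DCIS, where the 149 ZNF genes have a median of -0.48, against -0.03 in MCF10AT1 and -0.02 in MCF10CA1a.

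The start-site windows of 4 of these genes are shown with each CpG, the dinucleotide at which DNA is methylated, in capitals, to compare 3 lower genes with ZNF761, which was not called. All are from RefSeq (GRCh38.p14), 250 bases before to 50 after the start, 5′ to 3′ on the gene's strand. The windows are chr19:52527418-52527717 (plus) for ZNF808, chr19:52962832-52963131 (minus) for ZNF816, chr19:23395422-23395721 (minus) for ZNF91 and chr19:53431734-53432033 (plus) for ZNF761.
ZNF808: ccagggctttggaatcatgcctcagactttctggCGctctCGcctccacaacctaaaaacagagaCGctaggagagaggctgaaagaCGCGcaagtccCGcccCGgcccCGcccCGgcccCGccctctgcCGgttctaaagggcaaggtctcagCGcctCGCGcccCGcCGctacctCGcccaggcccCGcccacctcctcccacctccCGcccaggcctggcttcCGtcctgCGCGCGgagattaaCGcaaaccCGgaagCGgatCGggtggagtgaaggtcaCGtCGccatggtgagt
ZNF816: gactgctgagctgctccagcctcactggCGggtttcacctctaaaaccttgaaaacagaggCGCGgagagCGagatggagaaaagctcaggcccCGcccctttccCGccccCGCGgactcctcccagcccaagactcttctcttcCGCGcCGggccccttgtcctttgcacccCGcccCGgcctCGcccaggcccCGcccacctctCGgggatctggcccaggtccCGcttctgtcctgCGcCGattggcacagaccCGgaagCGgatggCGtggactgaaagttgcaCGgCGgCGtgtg
ZNF91: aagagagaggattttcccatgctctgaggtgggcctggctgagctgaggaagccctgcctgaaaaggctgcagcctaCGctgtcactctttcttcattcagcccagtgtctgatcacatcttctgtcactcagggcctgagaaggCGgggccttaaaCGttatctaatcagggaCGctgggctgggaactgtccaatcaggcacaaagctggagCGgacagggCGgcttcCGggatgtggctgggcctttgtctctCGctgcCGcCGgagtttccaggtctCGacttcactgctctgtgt
ZNF761: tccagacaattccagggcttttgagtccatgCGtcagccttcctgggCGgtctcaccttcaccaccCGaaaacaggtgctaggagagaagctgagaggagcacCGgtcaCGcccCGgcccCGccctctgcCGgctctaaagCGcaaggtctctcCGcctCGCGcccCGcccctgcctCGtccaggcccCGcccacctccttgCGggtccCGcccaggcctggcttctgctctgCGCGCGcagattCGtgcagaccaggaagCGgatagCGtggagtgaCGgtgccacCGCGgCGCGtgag
They hold 29, 25, 11 and 28 CpG. Over the 30 lower ZNF genes of chromosome 19 with a sequence the median was 19.5 CpG, over the 101 not lower ones 22, and over all compared genes 27. The ETS motif CCGGAAGT, on either strand, was in 2 of the 30 lower (6.67%) and 30 of the 101 not lower windows (29.7%), beside 9.57% of all compared genes. No methylation was measured in the values used here.

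Whole chromosomes also differed from one another. On chromosomes 7, 8, 16 and 20, grouped after their medians were seen, 482 of 2058 genes were lower (23.4%) and 45 higher (2.19%), and their median was -0.63. On all other chromosomes 733 of 10246 genes were lower (7.15%) and 413 higher (4.03%), and their median was -0.02. Chromosome 18, which is among the others, had 24 of 182 genes lower (13.2%) and a median of -0.44, beside -0.24 in MCF10AT1 and -0.20 in MCF10CA1a, and holds DSC2, DSG3 and DSG2. Chromosome 7 had a median of -0.67 in MCF10DCIS, -0.46 in MCF10AT1 and -0.52 in MCF10CA1a, and chromosomes 8 and 16 were low in all 3 derived lines too. Chromosome 20 had a median of -0.52 in MCF10DCIS, -0.14 in MCF10AT1 and 0.18 in MCF10CA1a, and chromosome 9 of -0.12, 0.55 and 0.55. The highest medians in MCF10DCIS were 0.29 on chromosome 15, 0.23 on chromosome 10 and 0.21 on chromosome 17; on the deposited scale the medians of all 23 chromosomes were below 0. CDH1 and CYBA lie on chromosome 16, as do the lower genes MAPK3, PALB2, ALDOA, PSMB10, NOXO1 and MSLN. MET and CPA4 lie on chromosome 7, as do RALA, ITGB8, SAMD9, KMT2C, EZH2, AGR2 and IGFBP3. E2F1, PCNA and WFDC2 lie on chromosome 20, and CCNE2 on chromosome 8. These genes are examples, and many other lower genes lie on the same chromosomes. Higher genes lie on these chromosomes too, such as PLAT on chromosome 8 and PRSS21 and HAS3 on chromosome 16. Whether the lower genes differ apart from the shift of their chromosome was not tested. DNA copy number was not measured in the values used here.

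**Figure D5:**
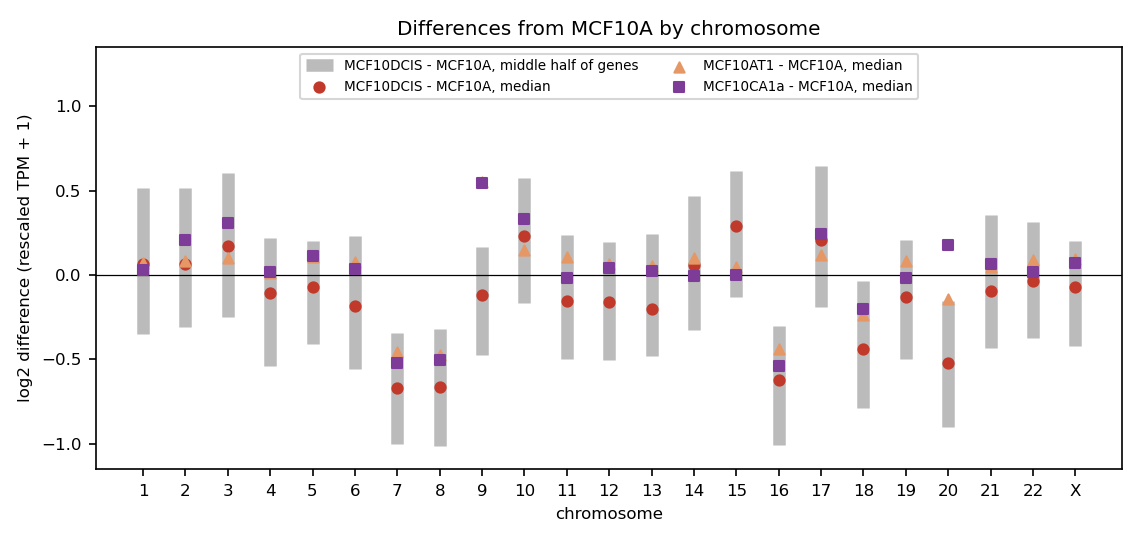
Median rescaled log2 difference from MCF10A by chromosome for MCF10DCIS, MCF10AT1 and MCF10CA1a; the grey bar spans the quartiles of the genes for MCF10DCIS. Chromosomes 7, 8 and 16 lie low in all 3 lines, with medians of -0.67, -0.66 and -0.62 in MCF10DCIS, and chromosome 20 lies lowest in MCF10DCIS, at -0.52.

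Most markers of other cell types did not reach 1 TPM in either line. Of 12 leukocyte markers 5 were compared, and 4 of these were lower and 0 higher; PTPRC was at 0.00651 and 0.0128 TPM, and CD3D and MS4A1 were listed at 0 in both lines, while the actin regulator gene CORO1A was at 2.81 and 37 TPM. Of 12 fibroblast markers 3 were compared, with COL1A1 higher, FAP lower and COL6A3 lower (0.0319 and 1.24 TPM), and COL1A2 and PDPN were listed at 0 in MCF10DCIS. Of 9 endothelial markers 1 was compared, and it was not called. Of 7 adipocyte markers 2 were compared, the lipid droplet gene PLIN4, higher at 2.95 and 0.763 TPM, and the lipase gene LPL, lower at 0.0284 and 3.29 TPM, and ADIPOQ was listed at 0 in both lines. Summed over their lists, leukocyte markers held 10.0 TPM in MCF10DCIS and 72.2 TPM in MCF10A, and fibroblast markers 3.75 and 18 TPM. Their part in the other differences was not tested.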

How the data were processed

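Libraries of total RNA were stranded, per the labels' protocols, with 3 for each of 4 lines. STAR, edgeR and hg38 are named in the submitters' processing notes. The program behind the values, its annotation and all versions were not given in the sources used here. One table was used, in which the authors give mean TPM per line for 59427 symbols. TPM keeps no read counts, so the depth is unknown and no interval or floor is given; values per library were not used here, so there is no SD, standard error or p-value.

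From the deposited TPM, log2(TPM + 1) differences were computed with Python 3.11.15, pandas 2.3.3 and numpy 2.4.6, over genes with at least 1 TPM in either line. Rescaled TPM left out structural and small RNAs, mitochondrially encoded RNAs and ribosomal protein mRNAs, and 12354 of the 12527 genes have such a value. A gene was called where the difference was at least 1 in the same direction on both scales. The calculation was tested on simulated data. Positions are from GENCODE release 29 on GRCh38, or RefSeq, and 12474 of the 12527 genes have one. Promoter sequences are from RefSeq (GRCh38.p14).

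The genes compared and the 72 gene lists were chosen with earlier results of these data known. Named genes were HRAS, CDH1, VIM, KRT5, KRT14 and TP63; the 20 higher and 20 lower called genes with the largest rescaled differences among those of 10 TPM or more in either line; in each list up to 4 called genes in each direction that reached 5 TPM, and the 3 most abundant; the 5 most abundant genes of the runs of 25 neighbours described; and very abundant structural RNAs. ACTA2, TAGLN, PTPRC, genes standing apart from every other line, neighbours of single genes, start-site windows, FTH1 and the zinc-finger and chromosome groups were chosen after values were seen. Alternatives were deposited or rescaled TPM alone, median-of-ratios scaling, quantile normalization, a pseudocount of 0.1, no filter and a filter of 5 TPM. A few genes are not reported here.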

Additional observations from a re-analysis of the deposited data

How the results depend on the processing

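The number of genes called higher in MCF10DCIS, 460 on both scales, was 932 on rescaled TPM alone, 847 with median-of-ratios scaling, 838 with quantile normalization and 264 with a filter of 5 TPM. The number called lower, 1224, was 1937 on deposited TPM alone, 794 with median-of-ratios scaling and 805 with quantile normalization. The median difference of all genes, -0.40 on deposited and -0.11 on rescaled TPM, was -0.00093 and -0.0094 under the last 2 scalings; their causes were not tested. A pseudocount of 0.1 gave 654 higher and 1518 lower genes, and without a filter the counts were the same 460 and 1224. Of the 371 named genes, the 241 called ones kept their direction under these alternatives. Calling already required a difference of at least 1 on both scales, so this follows largely from the rule. It does not measure how stable the calls were. Of the 130 not called, 51 changed sign, such as KRT5 (-0.26 on deposited and 0.11 on rescaled TPM), KRT18 (-0.16 and 0.21) and EPCAM (-0.29 and 0.08). The numbers of higher and of lower members in the 72 lists, 144 in all, moved by over 1.5 times in 40 with median-of-ratios scaling, 40 with quantile normalization, 25 on deposited TPM alone, 26 on rescaled TPM alone, 28 with the filter of 5 TPM and 15 with a pseudocount of 0.1. Among those not given with their list, glycolysis and hypoxia genes had 2 higher members and 6 with median-of-ratios scaling, NRF2 targets and glutathione genes 2 and 6, mucins and luminal secretory proteins 2 and 4, and interferon-stimulated genes 3 and 5. With the filter of 5 TPM, lower members fell from 3 to 1 among inducers of epithelial to mesenchymal transition. They fell from 4 to 1 among immune checkpoint ligands. Leaving out each library in turn could not be run on means. No paired analysis was possible because the table holds 1 mean per line and no value per library. Depth is unknown, so differences of genes near 1 TPM have an unknown counting error.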
